A study of Mus musculus with 23 samples.

Results

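The 53 probes described here were detected in control spleens of one mouse strain and not in those of the other. A probe was taken when its deposited detection p-value was under 0.01 on all 4 control pools of C57BL/6J and over 0.1 on all 4 of DBA/2J, or the reverse. The probe also had to carry a gene symbol in the platform annotation. Symbols starting with H2-, Klr, Fcer, Fcgr, Psm, Serpin, Slpi, Gbp, Rpl or Rps were left out. Of 20002 probes that could qualify, among 34492 on the array, 42 were detected in C57BL/6J only and 11 in DBA/2J only. They stand for 52 genes, because Gm16867 had 2 probes, and they are called C57BL/6J-only and DBA/2J-only members below. Without the conditions on symbols, 95 and 30 probes met the same thresholds, of which 47 and 17 had no symbol and 6 and 2 were left out by prefix. The members were thus selected on the detection p-values of the control pools, so control values are given as a description with no test, and tests use the irradiated pools.

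C57BL/6J and DBA/2J are inbred strains and the parents of the BXD recombinant inbred lines. Their genomes differ at many single bases and in gene copies, and some genes carry alleles that are strongly expressed in one of the strains. The array reads each transcript through short probes of fixed sequence, so a strain variant under a probe can change how well the transcript binds. From a single probe, a difference in binding and a difference in transcript level cannot be told apart. The mouse spleen filters blood, holds B and T cells and macrophages, and also makes red cells and granulocytes.

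RNA came from spleens of 10-week-old males, each array holding RNA of 2 mice of the same strain and group mixed in equal parts. In each strain one group was unirradiated, one was given 10 cGy from caesium, delivered at a rate of 9 cGy per hour, and one was given 1 Gy from cobalt at 6 Gy per min, both as gamma rays to the whole body. Spleens were taken at 24 h. There were 3 pools in the DBA/2J 10 cGy group and 4 in every other group, and the animals carried no engineered allele named in the labels. Dose, dose rate and source changed together and cannot be told apart, and p-values measure the spread between pools, not between single mice.

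Between 12039 and 13985 probes per array had a detection p under 0.01, and median signals ranged from 99.8 to 137. The spleen label held for B cells, since all 6 measured B cell markers were detected in every group apart from Pax5 in the DBA/2J 10 cGy pools. Pools 1 and 3 of that group stood apart, however. Their summed B cell signals were 7997 and 12350, against 30253 in the second pool and 19989 to 47514 in the other groups. Their T cell sums were 4363 and 4223, against 15750 in the second pool and 9135 to 31487 in the other groups. Macrophage sums were 15636 and 14493, against 30637 and 21262 to 61110, and plasma cell sums 17202 and 15758, against 37102 and 27922 to 60673. These sums include markers detected on no pool, which were Thy1 of T cells, Cd5l and Lyz2 of macrophages and Prdm1 of plasma cells. Cd4 was detected on no pool outside the DBA/2J 10 cGy group, and Sdc1 on no pool of that group. Pools 1 and 3 both enter the strain differences at 10 cGy and the comparisons between the doses in DBA/2J given below. The part of these lists in them was not tested. Summed signal of 13 measured granulocyte markers was 178646 to 228806 in the 3 DBA/2J 10 cGy pools, against 21297 to 78140 in DBA/2J controls and 37940 to 58372 at 1 Gy. In C57BL/6J it was 51132 to 201363 in controls, 16432 to 36265 at 10 cGy and 15919 to 40033 at 1 Gy. Mmp8 was detected on no pool outside the DBA/2J 10 cGy group, while the other measured granulocyte markers were detected somewhere in every group. Summed signal of 15 measured erythroid markers was 168757 to 237993 in C57BL/6J controls, 76118 to 151121 at 10 cGy and 58457 to 71255 at 1 Gy. In DBA/2J it was 200066 to 236192, 165094 to 304356 and 106648 to 152729, and Epb42 was detected on no pool, nor were Car2 and Rhd on any C57BL/6J 1 Gy pool. One C57BL/6J control pool and one C57BL/6J 1 Gy pool, both replicate 1, carried pancreatic transcripts, with sums of 247806 and 306523 far above all other pools. Fewer cells of a type and less RNA per cell cannot be told apart in such bulk samples.

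Most members kept the strain difference after irradiation. At 1 Gy, 36 of 42 C57BL/6J-only members were higher in C57BL/6J, where 3.45% of all probes were called in that direction, and 11 of 11 DBA/2J-only members were higher in DBA/2J, where 2.75% were. At 10 cGy the counts were 35 of 42, against 12.1% of all probes, and 9 of 11, against 11%. Calls are from limma at a Benjamini-Hochberg adjusted p under 0.05 over all 34492 probes, in the 15 irradiated pools alone. Over both doses together 37 of 42 and 10 of 11 were called, against backgrounds of 10.7% and 10.2%. Some C57BL/6J-only members were instead called higher in DBA/2J. They were 3 of 42 at 10 cGy (Diaph3, Itgb2l and Fam110c), against 11% of all probes, and 0 at 1 Gy, against 2.75%. Over both doses they were 2 of 42 (Itgb2l and Fam110c), against 10.2%. Neither the 1 Gy count of 36 nor that of 11 changed when the 1 Gy pools were fitted alone, without the DBA/2J 10 cGy pools, in a fit added after seeing the data. Leaving out the 1 Gy pool with pancreatic transcripts gave 35 and 11. The median difference, C57BL/6J minus DBA/2J on the log2 scale, was 1.18 at 1 Gy and 1.17 at 10 cGy for C57BL/6J-only members. For DBA/2J-only members it was -1.21 and -0.71, and over all probes it was -0.01 at each dose. Normalized log2 values of the strains did not overlap for 36 of 42 C57BL/6J-only members at 10 cGy, against 12.8% of all probes, and for 36 of 42 at 1 Gy, against 6.55%. For DBA/2J-only members the counts were 9 of 11, against 12.3%, and 11 of 11, against 7.17%.

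Detection itself was less steady than the strain difference. Of the 42 C57BL/6J-only members, 29 were detected on all 8 irradiated C57BL/6J pools and 36 on no irradiated DBA/2J pool. The full rule, with both thresholds, was met again by 23 members in the 10 cGy pools and 17 in the 1 Gy pools, 16 of them at both doses, and by 18 at neither. Across all 20002 probes that could qualify, 0.405% met the rule for C57BL/6J at 10 cGy and 0.160% at 1 Gy, beside 0.210% in the control pools that chose the members. Of the 11 DBA/2J-only members, 5 were detected on all 7 irradiated DBA/2J pools and 9 on no irradiated C57BL/6J pool. The rule was met again by 3 at 10 cGy and 6 at 1 Gy, 3 of them at both, and by 5 at neither, with 0.0600% and 0.1% of probes meeting it and 0.0550% in the control pools.

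Members that crossed the thresholds did so in both directions. In DBA/2J, Hdc was detected on all 3 of the 10 cGy pools, Susd4 on 3 of 4 pools at 1 Gy, Mrap on 1 pool at each dose, F11r and Crybg3 on 1 pool at 1 Gy and Fam110c on 1 at 10 cGy. In C57BL/6J, Kansl1l and Mcpt4 were each detected on 1 pool at 10 cGy. In the strain that had detected them, 10 C57BL/6J-only members had a p over 0.1 on at least 1 irradiated pool, and Fam110c had one on all 8, Itgb2l and Fam83d on 7 and Diaph3 on 4. Among DBA/2J-only members Mcpt4, Bpifa2 and LOC102643083 had a p over 0.1 on at least 1 irradiated DBA/2J pool.

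Among the C57BL/6J-only members with roles in immunity, Apobec3 was separated between the strains at every dose. It encodes a cytidine deaminase that restricts retroviruses, and it is the one member on a list of 31 genes known to differ between the strains, 24 of which were on the array. Its deposited signals in C57BL/6J were 1416, 1567, 985 and 1293 in control pools, 1324, 1112, 1527 and 1216 at 10 cGy and 1447, 1537, 1288 and 862 at 1 Gy. In DBA/2J they were 91.9, 71.6, 94.3 and 94.2 in controls, 81.9, 95 and 82.3 at 10 cGy and 105, 91.6, 91.7 and 89.7 at 1 Gy. Every C57BL/6J pool lay above every DBA/2J pool. The fitted difference over the irradiated pools was 3.98 ± 0.08 on the log2 scale (limma, adjusted p = 1.54e-16). Since no DBA/2J pool passed a detection p of 0.01, the fold is a lower bound, at least 12.3-fold at 10 cGy and at least 12.1-fold at 1 Gy. Such bounds are on the normalized scale, after background correction and quantile normalization, and not ratios of the deposited signals. They set the C57BL/6J mean against the higher of the DBA/2J value and the lowest value of a detected probe on each array. The fitted log2 differences use the DBA/2J values as they are, also where these are not above background, so their sizes give no order among such members.

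Il18bp encodes a secreted protein that binds and neutralises interleukin-18. Its signals at 10 cGy were 643, 548, 598 and 672 in C57BL/6J and 86.6, 84.5 and 75.2 in DBA/2J. At 1 Gy they were 935, 1033, 833 and 697 against 97, 103, 95.6 and 87.7, and the strains did not overlap at either dose. The difference was 3.19 ± 0.09 (limma, adjusted p = 1.48e-14), at least 5.78-fold at 10 cGy and at least 8.29-fold at 1 Gy. Cxcl10, a chemokine induced by interferon that draws T cells through the receptor Cxcr3, had signals of 239, 304, 408 and 391 at 10 cGy and 466, 454, 398 and 283 at 1 Gy in C57BL/6J. In DBA/2J they were 72.2, 80.7 and 79.2 at 10 cGy and 105, 81.1, 93.4 and 82.2 at 1 Gy. All irradiated C57BL/6J pools were above all DBA/2J pools, with a difference of 2.25 ± 0.10 (limma, adjusted p = 9.47e-12) and folds of at least 3.03-fold and at least 3.69-fold. Smaller differences over the irradiated pools were those of F11r, a junction adhesion molecule, at 1.5 ± 0.07, Ptk2b, a calcium-responsive kinase of immune cells, at 1.07 ± 0.12, and the lymphoid phosphatase Ptpn7 at 0.86 ± 0.10. Susd4, which inhibits complement, had a difference of 0.67 ± 0.10, and all 4 were called. The call of Susd4 at 1 Gy alone was lost without C57BL/6J replicate 1, 2 or 4 or DBA/2J replicate 2, 3 or 4, with an adjusted p up to 0.160 in limma. Over the irradiated pools 37 of 42 C57BL/6J-only members were called higher in C57BL/6J, against 10.7% of all probes. Of the 8 members placed in this group by their known roles, 7 were so called, near the share of all members. The exception was Itgb2l, which was called higher in DBA/2J, at -0.60 for C57BL/6J minus DBA/2J.

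The stretch from 250 bases before to 50 after the gene start is shown for Apobec3 and Cxcl10, which are C57BL/6J-only members known as interferon-responsive genes. The sequences are from RefSeq, build GRCm38.p6, of the C57BL/6J reference, 5′ to 3′ on the strand of the gene. Capitals mark a match to the core of the interferon-stimulated response element, searched on either strand as GAAA, any 2 bases and GAAA, and the match in Apobec3 is on the opposite strand.
Apobec3, chr15:79892158-79892457, plus strand: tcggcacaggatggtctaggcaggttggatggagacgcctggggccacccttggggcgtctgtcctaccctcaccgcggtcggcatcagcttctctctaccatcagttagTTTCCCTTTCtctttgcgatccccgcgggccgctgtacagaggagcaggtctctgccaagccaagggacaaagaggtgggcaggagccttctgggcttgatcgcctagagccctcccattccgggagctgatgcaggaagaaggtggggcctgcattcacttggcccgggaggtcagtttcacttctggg
Cxcl10, chr5:92348840-92349139, minus strand: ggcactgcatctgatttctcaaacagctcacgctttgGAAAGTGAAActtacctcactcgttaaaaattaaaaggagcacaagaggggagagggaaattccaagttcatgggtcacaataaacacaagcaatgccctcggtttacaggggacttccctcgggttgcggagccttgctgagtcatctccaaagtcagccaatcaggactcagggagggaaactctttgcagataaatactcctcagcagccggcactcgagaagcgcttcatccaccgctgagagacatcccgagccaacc
The match starts 140 bases before the start of Apobec3 and 213 before that of Cxcl10. Of 57 such stretches for 42 of the 52 member genes, 3 held the motif (5.26%), those of Apobec3, Cxcl10 and the DBA/2J-only member Asgr2. It was held by 3.44% of all 32851 mouse stretches. A match is a string of letters and not a measured binding site.

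Members that build membranes, matrix and the cell skeleton also kept their difference. Of the C57BL/6J-only members of this kind, 6 of 6 were called higher in C57BL/6J over the irradiated pools, with a median of 2.45. The share was 37 of 42 for all C57BL/6J-only members and 10.7% for all probes. Sspn encodes sarcospan, a membrane protein of the dystrophin-glycoprotein complex. Its C57BL/6J signals were 827, 1106, 806 and 971 in controls, 1366, 920.5, 1563 and 1157 at 10 cGy and 1558, 1188, 1174 and 1032 at 1 Gy. Its DBA/2J signals were 84.3, 62.1, 80.1 and 82.3 in controls, 77.6, 84.7 and 79.4 at 10 cGy and 84, 85.7, 65.1 and 78.1 at 1 Gy. No pool overlapped between strains, and the difference of 4.15 ± 0.08 (limma, adjusted p = 1.54e-16) gave folds of at least 11.7-fold at 10 cGy and at least 11.9-fold at 1 Gy. Reck, a membrane-anchored inhibitor of matrix metalloproteinases, differed by 2.64 ± 0.10, with irradiated signals of 373 to 742 in C57BL/6J and 82.1 to 122 in DBA/2J. Ablim1, which binds actin filaments, differed by 2.34 ± 0.10, with 241 to 642 against 73.1 to 86.9. Hmcn1, an extracellular matrix protein, differed by 0.57 ± 0.07 and lost detection on part of the irradiated C57BL/6J pools.

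A group of neighbouring genes of chromosome 14 were C57BL/6J-only members, and no other members of one direction lay within 5 protein-coding genes of each other. In gene order, by the RefSeq table of GRCm38.p6, they were Adamdec1, then 4 other genes, Slc25a37, then 2 other genes, and Gm16867. Adamdec1 encodes a secreted metalloproteinase of macrophages and dendritic cells. Its irradiated C57BL/6J signals were 469, 620.4, 736 and 576 at 10 cGy and 813, 683, 633 and 380.4 at 1 Gy. Its DBA/2J signals were 121, 104 and 99.1 at 10 cGy and 112, 109, 104 and 103 at 1 Gy. The strains were far apart at both doses, by 2.56 ± 0.11 (limma, adjusted p = 4.46e-12).

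Slc25a37 encodes mitoferrin-1, which carries iron into the mitochondria of developing red cells. Its member probe read 1044, 2292, 787 and 1493 in C57BL/6J controls, 292, 307, 853 and 241 at 10 cGy and 306, 246, 228 and 216 at 1 Gy. The DBA/2J readings were 84.4, 88.7, 90.1 and 88.5 in controls, 80.7, 88.6 and 84.8 at 10 cGy and 88.6, 97.5, 85 and 78.9 at 1 Gy. The irradiated C57BL/6J pools were lower than the controls apart from 1 pool at 10 cGy, which was above the lowest control, and all stayed above DBA/2J. The strain difference was 1.93 ± 0.16 (limma, adjusted p = 6.02e-08), at least 3.39-fold at 10 cGy and at least 2.29-fold at 1 Gy. Against the C57BL/6J controls the mean was -1.82 at 10 cGy and -2.44 at 1 Gy, given without a test. A second probe of Slc25a37 was detected on every pool of both strains, with signals of 6454 to 14127 in C57BL/6J controls, 2235 to 6844 at 10 cGy and 1224 to 1425 at 1 Gy. For DBA/2J the values were 10365 to 12274, 5975 to 21705 and 2492 to 4792. It was higher in DBA/2J, with C57BL/6J minus DBA/2J at -1.72 ± 0.26 (limma, adjusted p = 7.87e-05), so the 2 probes of the gene were called in opposite directions. In C57BL/6J the summed erythroid markers given above were also lower in irradiated than in control pools. In DBA/2J these sums ranged from 106648 to 304356, while the member probe read 78.9 to 97.5 throughout. The second probe and the sums were both lowest at 1 Gy in DBA/2J. The part of the sums in the differences was not tested.

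Gm16867, a predicted gene, had 2 member probes, and both were called, at 0.82 ± 0.09 and 0.57 ± 0.09 (limma, adjusted p = 1.46e-06 and 0.000187). The first was detected on 7 of 8 irradiated C57BL/6J pools and the second on 2, so the second call is near background. Neither was detected on any of the 7 irradiated DBA/2J pools. Both had lower means in irradiated than in control C57BL/6J pools, with differences from control of -1.08 and -1.22 at 1 Gy, without a test. The window from 5 genes before Adamdec1 to 5 after Gm16867 held 19 protein-coding genes, 15 of them with a probe. Of its 15 probes that are not members, 2 were called higher in C57BL/6J and 3 in DBA/2J, while 7 were detected on no irradiated pool. The probes higher in C57BL/6J were both of Entpd4, a Golgi nucleotide phosphatase between Slc25a37 and Gm16867. One of them was detected on 7 of 8 irradiated C57BL/6J pools and none of 7 DBA/2J pools, at 0.86 ± 0.09 (limma, adjusted p = 1.56e-06), and the other on no irradiated pool, at 0.21 ± 0.05 (adjusted p = 0.0101). The annotation also lists Entpd4b, with no probe, shortly after Gm16867, and whether the probes bind more than one of these genes was not tested. Gnrh1, Stc1 and the second Slc25a37 probe were the 3 higher in DBA/2J, and Dock5, Loxl2 and R3hcc1, detected on all irradiated pools, were not called, at 0.09 ± 0.06, 0.04 ± 0.08 and -0.05 ± 0.12.

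Members that act in cell division were a mixed group. Beside 37 of 42 C57BL/6J-only members and 10.7% of all probes, 1 of 5 was called higher in C57BL/6J over the irradiated pools. The one called was Kif2c, a kinesin that takes apart microtubules at the centromere. Its C57BL/6J signals were 955, 1768, 919 and 1504 in controls, 601, 430.1, 763 and 647 at 10 cGy and 449.7, 374, 500.1 and 507 at 1 Gy. Its DBA/2J signals were 69.7, 70.8, 70.3 and 83.9 in controls, 69.6, 78.9 and 75.7 at 10 cGy and 81.6, 96.8, 62.8 and 75.8 at 1 Gy. Every irradiated C57BL/6J pool was below every C57BL/6J control and above every DBA/2J pool. The difference was 2.95 ± 0.12 (limma, adjusted p = 4.96e-12), at least 5.61-fold at 10 cGy and at least 4.31-fold at 1 Gy. Against control, its mean in C57BL/6J was -1.02 at 10 cGy and -1.45 at 1 Gy, without a test.

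The other division genes were near the limit of detection or had signal in both strains. Fam83d, a spindle protein, read 158, 297, 132 and 259 in C57BL/6J controls but 91.9 to 133 in irradiated C57BL/6J pools, against 86.5 to 104 in irradiated DBA/2J pools. Its strain difference was 0.14 ± 0.06 (limma, adjusted p = 0.0806). Fam110c, a microtubule-associated protein, was higher in DBA/2J at 10 cGy, with C57BL/6J minus DBA/2J at -0.59 ± 0.13 (limma, adjusted p = 0.00263). Stag3, a cohesin subunit of meiosis, differed by 0.05 ± 0.08 (adjusted p = 0.727 in limma). Diaph3, a formin that assembles actin, had DBA/2J control signals of 442, 345, 369.9 and 299.5, all with a detection p over 0.1, while its C57BL/6J signals were 521, 914, 519 and 896. On each array, 703 to 871 probes had a p over 0.1 although their signal exceeded that of probes with a p near 0.01, which was 114 to 153, so the order of p-values and of signals differed. Diaph3 and Hpcal1 were the 2 members with such control signals in the strain counted as lacking them, and 40 C57BL/6J-only members remained when they were left out, a setting added after seeing the data. At 10 cGy no pool of either strain passed a detection p of 0.01 for Diaph3, with 0.0272 to 0.0755 in C57BL/6J and 0.0528 to 0.307 in DBA/2J. Diaph3 was higher in DBA/2J there, at -1.01 ± 0.34 (adjusted p = 0.0364 in limma), with signals of 306, 247, 436 and 241 in C57BL/6J and 658, 202 and 678 in DBA/2J. That call was lost in 5 of 15 fits with a pool left out, without C57BL/6J replicate 1, 2 or 4 or DBA/2J replicate 1 or 3 at 10 cGy, with an adjusted p up to 0.232 in limma.

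Kif2c and Fam83d both had a lower mean in irradiated than in control C57BL/6J pools, and their start regions are shown because a 6-letter core of the cell cycle homology element, TTTGAA, occurs in each. Capitals mark the match, found in each case on the opposite strand, and the source and build are those named above.
Kif2c, chr4:117178723-117179022, minus strand: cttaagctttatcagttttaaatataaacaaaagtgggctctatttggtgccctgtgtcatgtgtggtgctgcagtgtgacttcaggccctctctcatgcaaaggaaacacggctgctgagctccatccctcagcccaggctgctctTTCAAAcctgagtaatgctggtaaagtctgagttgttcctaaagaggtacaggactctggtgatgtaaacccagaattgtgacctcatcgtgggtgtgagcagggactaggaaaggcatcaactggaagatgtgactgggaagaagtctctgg
Fam83d, chr2:158767849-158768148, plus strand: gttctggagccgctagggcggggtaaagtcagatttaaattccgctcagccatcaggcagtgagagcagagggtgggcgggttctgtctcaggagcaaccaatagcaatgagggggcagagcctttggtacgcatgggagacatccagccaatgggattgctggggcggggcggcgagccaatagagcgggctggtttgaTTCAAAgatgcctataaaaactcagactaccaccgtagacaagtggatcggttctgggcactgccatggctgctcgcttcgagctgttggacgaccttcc
The match begins 103 bases before the start of Kif2c and 50 before that of Fam83d. In all, 9 of 57 member stretches held the motif (15.8%), compared with 17.9% of all stretches.

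A pair of C57BL/6J-only members tied to granulocytes and basophils had strain differences that depended on dose. Hdc makes histamine from histidine and is active in basophils, mast cells and myeloid precursors. It read 1030, 373, 181 and 1076 in C57BL/6J controls, 236, 177, 235 and 190.0 at 10 cGy and 302, 267, 249 and 200.4 at 1 Gy. The DBA/2J pools read 78.7, 94.2, 97.5 and 96.2 in controls, 163, 303 and 139.5 at 10 cGy and 112, 118, 103 and 107 at 1 Gy. The strains overlapped at 10 cGy and were apart at 1 Gy, with differences of -0.20 ± 0.19 (adjusted p = 0.525 in limma) and 1.27 ± 0.18 (adjusted p = 9.41e-05). The change in the strain difference from 10 cGy to 1 Gy was itself called, at 1.47 ± 0.26 (adjusted p = 0.00835 in limma), where 2.93% of all probes were called in either direction. Itgb2l, an integrin beta chain of leukocytes, read 409, 302, 139 and 328 in C57BL/6J controls, 102, 93.8, 124 and 87.8 at 10 cGy and 113, 101, 119 and 91.4 at 1 Gy. In DBA/2J it read 115, 91, 92.9 and 95.2 in controls, 229.8, 141 and 187 at 10 cGy and 119, 92.4, 96.4 and 93 at 1 Gy. At 10 cGy the DBA/2J pools were all above the C57BL/6J pools, at -1.28 ± 0.18 for C57BL/6J minus DBA/2J (adjusted p = 3.95e-05 in limma), and at 1 Gy the strains overlapped, at 0.09 ± 0.16 (adjusted p = 0.887). No 10 cGy pool of either strain passed a detection p of 0.01 for Itgb2l. The detection p was 0.0309 to 0.362 in DBA/2J and 0.0738 to 0.608 in C57BL/6J. The dose dependence was 1.37 ± 0.24 (adjusted p = 0.00725 in limma). In DBA/2J alone both were lower at 1 Gy than at 10 cGy, with a difference of -1.21 ± 0.19 for Hdc (adjusted p = 0.000717 in limma) and -1.32 ± 0.18 for Itgb2l (adjusted p = 0.000231), where 7.29% of all probes were called lower. The granulocyte sums given above were highest in the DBA/2J 10 cGy pools, and in C57BL/6J controls the pool with the lowest sum also had the lowest Hdc and Itgb2l signals. Their part in these differences was not tested.

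In the group acting on chromatin, RNA and protein, 9 of 9 C57BL/6J-only members were called higher in C57BL/6J over the irradiated pools. Their median difference was 1.56. The share was 37 of 42 for all C57BL/6J-only members and 10.7% for all probes. Tesk1, a kinase of the actin regulator cofilin, read 854, 987, 824 and 669 at 10 cGy and 1094, 678, 1110 and 725 at 1 Gy in C57BL/6J. DBA/2J pools read 96.4, 105 and 114 at 10 cGy and 118, 107, 116 and 107 at 1 Gy, well apart at both doses, with a difference of 3.08 ± 0.13 (limma, adjusted p = 5.31e-12). Ring1, a subunit of Polycomb complexes, differed by 1.93 ± 0.07, Tasp1, the protease that cleaves MLL proteins, by 1.85 ± 0.13, and Vars2, the mitochondrial valyl-tRNA synthetase, by 1.56 ± 0.07. The arginine methyltransferase Prmt3 and the deiminase Padi2 differed by 0.68 ± 0.08 and 0.61 ± 0.07. Rbm44, an RNA-binding protein, was at the edge, at 0.32 ± 0.10 (adjusted p = 0.0338 in limma), and was called at neither dose alone. Its call was kept in 5 of 15 fits with a pool left out, with an adjusted p up to 0.0839 in limma, and without C57BL/6J 10 cGy replicate 3 it was 0.0667.

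Of the remaining C57BL/6J-only members, 4 of 4 with roles in metabolism and signalling were called higher in C57BL/6J over the irradiated pools. So were 5 of 5 little described ones. The share was 37 of 42 for all C57BL/6J-only members and 10.7% for all probes. Mrap, the accessory protein of the ACTH receptor, differed by 1.92 ± 0.13, with irradiated signals of 268 to 744 in C57BL/6J and 88.6 to 134 in DBA/2J. Hpcal1, a neuronal calcium sensor, differed by 0.76 ± 0.10. Pde5a, which degrades cyclic GMP, and Agpat5, an enzyme of phospholipid synthesis, differed by 0.48 ± 0.06 and 0.59 ± 0.06. Pde5a was detected on no C57BL/6J pool at 1 Gy, with a detection p of 0.0131 to 0.157. Among the little described members, Cdpf1 differed by 1.98 ± 0.08, Tmem260 by 1.27 ± 0.07, Crybg3 by 0.82 ± 0.11 and 2610301B20Rik by 0.55 ± 0.07. Some members counted in other role groups are also given here. Slc22a4, a transporter of ergothioneine and carnitine, differed by 0.75 ± 0.08. Its mean in C57BL/6J was -1.10 against control at 1 Gy, without a test. Ctdspl2, a phosphatase-like protein, and Zfp738, a zinc finger protein, were counted in the chromatin, RNA and protein group. They differed by 1.84 ± 0.07 and 1.48 ± 0.08. Mxra7, counted in the membrane and matrix group, differed by 1.04 ± 0.07. The predicted gene 1700123O20Rik read 1217, 821, 1098 and 826 at 10 cGy and 1122, 1124, 971 and 804 at 1 Gy in C57BL/6J. In DBA/2J it read 90.1, 99.6 and 115 at 10 cGy and 127, 89, 91.9 and 108 at 1 Gy. No irradiated pool overlapped between the strains, the difference was 3.39 ± 0.10 (limma, adjusted p = 2.96e-14), and the folds were at least 8.98-fold and at least 9.42-fold.

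In the other direction, Ankrd61, an ankyrin repeat protein of little described function, and Wscd1, a membrane protein related to sulfotransferases, were higher in DBA/2J at both doses. Ankrd61 read 580.2, 1438, 413 and 608 in DBA/2J controls, 1041, 324 and 629 at 10 cGy and 347, 308, 230.0 and 278 at 1 Gy. In C57BL/6J it read 80.0, 116, 79 and 109.6 in controls, 124, 106, 102 and 90.0 at 10 cGy and 103, 109.8, 113 and 93.2 at 1 Gy. DBA/2J was above C57BL/6J in every pool, by 3.04 ± 0.28 on the log2 scale at 10 cGy (limma, adjusted p = 3.95e-07) and 1.52 ± 0.26 at 1 Gy (adjusted p = 0.000688). Wscd1 read 289, 278, 289.9 and 266 in DBA/2J controls, 365, 288 and 504 at 10 cGy and 181, 189.8, 274 and 269 at 1 Gy. In C57BL/6J it read 89.3, 123, 79 and 113 in controls, 96.1, 87.8, 111 and 107 at 10 cGy and 111, 98.9, 99 and 97.7 at 1 Gy. No pool overlapped between the strains, and the difference was 2.47 ± 0.20 at 10 cGy (limma, adjusted p = 6.37e-08) and 1.21 ± 0.18 at 1 Gy (adjusted p = 0.000192).

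Sult4a1, a sulfotransferase best known from brain, read 179.9, 462 and 164 at 10 cGy and 312, 262, 289 and 346 at 1 Gy in DBA/2J. In C57BL/6J it read 87.5 to 114, below all DBA/2J pools, and the difference, DBA/2J minus C57BL/6J, was 1.65 ± 0.16 (limma, adjusted p = 5.77e-07). Asgr2, a subunit of the hepatocyte receptor for desialylated glycoproteins, differed by 1.07 ± 0.11, and Kansl1l, a relative of a histone acetyltransferase subunit, by 0.93 ± 0.11. Others among the DBA/2J-only members are best known from other organs. Bpifa2, a salivary protein, differed by 0.98 ± 0.12, the Paneth cell defensin Defa31 by 0.67 ± 0.08, and Actc1, the actin of heart muscle, by 0.67 ± 0.09. Cfi, the protease that inactivates complement C3b, differed by 0.42 ± 0.06, and LOC102643083 by 0.33 ± 0.07, and all of these were called over the irradiated pools. At 10 cGy alone the call of Cfi was lost in 5 of 15 fits with a pool left out, with an adjusted p up to 0.142 in limma. Defa31 belongs to a family of near-identical genes, so its probe may read more than one of them. Mcpt4, a chymase of mast cells, read 171, 119, 224 and 426 at 1 Gy in DBA/2J against 117, 105, 89.1 and 70.9 in C57BL/6J, and was called there, at 1.23 ± 0.32 (adjusted p = 0.0252 in limma). This call was lost without C57BL/6J or DBA/2J replicate 3 or 4 at 1 Gy, with an adjusted p up to 0.0866 in limma. At 10 cGy it read 91.3, 154 and 90.0 against 99.9, 114, 217 and 92.3 and was not, at -0.06 ± 0.35 (95% interval -0.78 to 0.67). Whether these 2 differences differ was tested by the interaction, at 1.28 ± 0.47 (adjusted p = 0.137 in limma).

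The comparison of 1 Gy with 10 cGy within a strain did not use the control pools. In C57BL/6J, 0 of 42 C57BL/6J-only members were called by limma, with 9 at an unadjusted p under 0.05. Of all probes 0.0667% were called, 0.0319% higher and 0.0348% lower at 1 Gy. In DBA/2J, 5 of 11 DBA/2J-only members were called, where 16.2% of all probes were, 8.94% higher and 7.29% lower at 1 Gy. Ankrd61 and Wscd1 were lower at 1 Gy, with differences of -1.56 ± 0.28 (adjusted p = 0.00142 in limma) and -1.26 ± 0.20 (adjusted p = 0.000636). Asgr2, Bpifa2 and Cfi were higher, by 0.50 ± 0.16 (adjusted p = 0.0454 in limma), 0.56 ± 0.17 (adjusted p = 0.0348) and 0.30 ± 0.09 (adjusted p = 0.0302). The calls of Ankrd61 and Wscd1 held whichever irradiated pool was left out, with adjusted p up to 0.00982 and 0.00604, while those of Asgr2, Bpifa2 and Cfi were not as steady. Asgr2 was called in 2 of 15 such fits, with an adjusted p up to 0.289. Bpifa2 and Cfi were called in 10, and were lost without DBA/2J replicate 1 or 3 at 10 cGy or replicate 2, 3 or 4 at 1 Gy, with adjusted p up to 0.243 and 0.140. The count of 5 ranged from 2 to 7. For both Ankrd61 and Wscd1 the change in strain difference between doses was called, at -1.52 ± 0.38 (adjusted p = 0.0384 in limma) and -1.26 ± 0.27 (adjusted p = 0.0203), where the call of Ankrd61 held in 1 of 15 fits with a pool left out, with an adjusted p up to 0.0939. That of Wscd1 was lost without DBA/2J 10 cGy replicate 1 or 3, with an adjusted p up to 0.0697. With Hdc and Itgb2l they made 4 of 53 members called for that change, where 14 had an unadjusted p under 0.05. Without the DBA/2J 10 cGy replicates in turn the count of 4 became 2, 9 and 2. The DBA/2J 10 cGy pools had the high granulocyte sums given above, whose part in these values was not tested.

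Against the controls of the strain that detected them, and with no test, 10 C57BL/6J-only probes had a 1 Gy mean lower by more than 1 on the log2 scale. They were those of Slc25a37, Kif2c, Diaph3, Hdc, Itgb2l, Slc22a4, Fam83d, Fam110c and both probes of Gm16867. None was higher by more than 1. At 10 cGy 7 probes were lower by that size. Among DBA/2J-only members Ankrd61 alone was lower by that size at 1 Gy. A member had to be above background in the controls that chose it, so lower values elsewhere are in part fixed by the choice.

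A second probe gave a further reading for part of the genes. On the array, 14 of the 41 C57BL/6J-only genes had 18 probes outside the members, of which 8 were called higher in C57BL/6J over the irradiated pools, 3 higher in DBA/2J and 7 neither, against backgrounds of 10.7% and 10.2%. Of these, 9 probes of 8 genes were detected on all 8 control pools, so those probes read signal in both strains. For Apobec3 the second probe was detected in both strains, with irradiated signals of 900.3 to 1372 and 968 to 1430 in C57BL/6J at 10 cGy and 1 Gy, against 198 to 254 and 259 to 312 in DBA/2J. It was higher in C57BL/6J by 2.11 ± 0.08 (limma, adjusted p = 2.93e-12), in the direction of the member probe. Further probes in the same direction were those of Ablim1 at 1.19 ± 0.11, Tmem260 at 0.80 ± 0.07, Mxra7 at 0.65 ± 0.11, Prmt3 at 0.58 ± 0.12, Ptk2b at 0.54 ± 0.17, Il18bp at 0.43 ± 0.06 and Ctdspl2 at 0.30 ± 0.10. Of these, the Tmem260 probe was detected on no pool of either strain, with a detection p over 0.1 throughout. Its signals were nevertheless 264 to 455 in C57BL/6J and 147 to 236 in DBA/2J, while signals at a p near 0.01 were 114 to 153. Its p-values and signals thus differed in order, as for Diaph3, and its level against background is not settled. The Il18bp probe was detected on no control pool and no DBA/2J pool, so its value is a difference among signals at or near background. At 1 Gy the named probes of Mxra7, Prmt3, Ptk2b and Ctdspl2 differed by 0.41 ± 0.15, 0.28 ± 0.16, 0.11 ± 0.23 and 0.36 ± 0.13. None was called there, with adjusted p of 0.129 to 0.903 in limma, and that of Ctdspl2 was not called at 10 cGy either. A further Prmt3 probe, detected on every pool, was not called, at -0.17 ± 0.09 (adjusted p = 0.228 in limma). Nor were other probes of Ablim1, at -0.03 ± 0.07 and 0.09 ± 0.06, and of Ctdspl2, at 0.16 ± 0.07. Besides Slc25a37, the second probes of Tasp1 and Vars2 were higher in DBA/2J, with C57BL/6J minus DBA/2J at -0.55 ± 0.09 and -0.37 ± 0.09 (limma, adjusted p = 0.000255 and 0.00736). Their irradiated signals were 513 to 673 in C57BL/6J and 742 to 1005 in DBA/2J for Tasp1 at 1 Gy, and 709.5 to 1093 against 1137 to 1489 for Vars2. At 10 cGy the signals overlapped, with 491 to 596 against 577 to 662 for Tasp1 and 804 to 1038 against 869 to 945 for Vars2. The second Vars2 probe was called at neither dose alone (adjusted p = 0.0687 at 10 cGy and 0.0956 at 1 Gy in limma). Of the DBA/2J-only genes 1 had another probe, that of Sult4a1, which was detected on no control pool and was not called, at 0.20 ± 0.08 for DBA/2J minus C57BL/6J (adjusted p = 0.0791 in limma).

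All 53 probes were matched to RefSeq by gene number, and 52 were of protein-coding genes. Chromosome 14 held 8 of the 42 C57BL/6J-only probes, and 3.53% of all probes that could qualify. Those members, in gene order, were Tmem260, 1700123O20Rik, Ptk2b, Adamdec1, Slc25a37, Gm16867 and Diaph3, with 15 protein-coding genes between Ptk2b and Adamdec1. No member lay on chromosomes 9, 10, 18, X or Y, which held 5.87%, 4.66%, 2.73%, 3.55% and 0.0852% of the probes that could qualify. Whether members were fewer there than these shares give was not tested. The next closest pair elsewhere was Tesk1 and Reck on chromosome 4, with 24 genes between them, and among DBA/2J-only members Asgr2 and Wscd1 on chromosome 11, with 45. Probe design also differed in number, since 10 of 42 C57BL/6J-only probes (23.8%) and 2 of 11 DBA/2J-only probes (18.2%) were designed on a cDNA clone rather than a RefSeq transcript, beside 11.6% of all probes that could qualify.

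Members just inside the thresholds are close to probes just outside them. For C57BL/6J the highest detection p in the detecting strain was 0.00982 for Itgb2l and 0.00920 for Rbm44, while Apoa2 and Pkn2 fell outside with 0.0104 and 0.0118. The lowest p in DBA/2J was 0.103 for Fam110c and 0.116 for Zfp738, while Ccdc50 and Cib3 fell outside with 0.0977 and 0.0965. For DBA/2J the corresponding values were 0.00558 for Defa31 and 0.00327 for Mcpt4 inside, and 0.0209 for Zdhhc24 and 0.0210 for Arhgef16 outside. On the C57BL/6J side they were 0.101 for Actc1 and 0.111 for LOC102643083 inside, and 0.0820 for Msmb and 0.0591 for Gm5113 outside.

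Lists of genes known to vary between these strains and of gene families were also searched for members. Of all probes that could qualify, 0.210% were C57BL/6J-only and 0.0550% DBA/2J-only members. With shares this low, 0 members in a list of 4 to 34 probes is no result about that list. Of 31 probes for the known strain differences, 11 were called higher in C57BL/6J and 4 in DBA/2J over the irradiated pools, with a median of 0.10 for C57BL/6J minus DBA/2J, and Apobec3 was the one member. The Ifi200 family, interferon-inducible DNA sensors, held 0 members, and 3 of its 4 probes were called higher in C57BL/6J. The Trim cluster, antiviral ubiquitin ligases, held 0 members, and 6 of its 8 probes were called higher in C57BL/6J. Membrane lectins and Ly6 proteins held 0 members, with 4 of 20 probes higher in C57BL/6J and 3 in DBA/2J. Slfn and Nlrp genes held 0, with 2 of 12 probes higher in C57BL/6J and 0 in DBA/2J. Glutathione S-transferases and aldehyde enzymes held 0, with 5 of 34 higher in C57BL/6J and 7 in DBA/2J. The shares of all probes called in these directions are 10.7% and 10.2%.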

How the data were processed

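RNA of pooled spleens was hybridised to one-colour Illumina arrays, 23 in all. The intensity values used are the probe signals in the authors' deposited non-normalized table, per the file headers, and their background treatment was not stated. The detection p-values were deposited by the authors beside each signal, per the file headers. The log2 values deposited by the authors as processed data, made with lumi per the submitters' processing notes, served as an alternative. From the signals, limma 3.58.1 in R 4.3.3 was run on 34492 probes after normexp background correction (offset 50) and quantile scaling, with lmFit and eBayes and a variance trend. The fit held the 15 irradiated pools, since the 8 control pools chose the members, and Benjamini-Hochberg adjustment covered every probe. Genes were named from the platform annotation and RefSeq gene numbers, with Python 3.11.15 and pandas 2.3.3. Simulated data gave 38 of 50 probes recovered at a strain difference of 0.5 on the log2 scale and 50 of 50 at 1, with 10 false calls among 34492 probes. The simulation drew noise for each probe on its own, with no shift shared by the probes of a pool. Its counts check the fit and need not hold for these pools.

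The members, gene lists and role groups were chosen with earlier results of these data known. The rule for named genes took the 12 members a direction with the highest control signal, members near another on a chromosome, members with a second probe, those whose detection or call changed with irradiation, those on the list of known strain differences, and those nearest the thresholds. Members named beyond that rule, by their role, were chosen after their values were seen. The labels give no slide, scan or replicate number, so replicates are numbered in accession order and no batch could be tested. No 2 pools of a group shared more than 1 probe value. The number of arrays limits the precision. Alternatives varied background correction, scaling, filter, detection thresholds and the pools used, and 2 were added after seeing the data.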

Additional observations from a re-analysis of the deposited data

Results flagged for a closer look

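The gap of 1 pool to its nearest neighbour, as a share of the group's range, exceeded Dixon's critical value for 4 samples in 5 of the 148 groups tested, and chance flags about 1 in 20. The share was 0.834 for Adamdec1 in C57BL/6J 1 Gy replicate 4, which was low, 0.867 for Gm16867 in C57BL/6J 10 cGy replicate 3, which was high, and 0.877 for Vars2 in C57BL/6J 1 Gy replicate 2, which was low. It was 0.835 for Ptpn7 in C57BL/6J control replicate 2, which was high, and 0.933 for Pde5a in C57BL/6J control replicate 3, which was low.

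The strain difference itself differed between 1 Gy and 10 cGy for 4 members by the interaction term in limma. For Hdc it was larger at 1 Gy by 1.47 and for Itgb2l by 1.37, as C57BL/6J minus DBA/2J on the log2 scale. For Ankrd61 the change was -1.52 and for Wscd1 -1.26, as DBA/2J minus C57BL/6J.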

How the results depend on the processing

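Under settings other than leaving out a pool, C57BL/6J-only members called ranged from 32 to 36 at 1 Gy. They ranged from 35 to 36 at 10 cGy and 35 to 37 over both doses. With the background inferred from detection p-values and an offset of 16, the DBA/2J-only members called at 1 Gy went from 11 to 7, those called between the doses in DBA/2J from 5 to 3, and the members with a dose-dependent strain difference from 4 to 1. Normexp with an offset of 16 also gave 3 between the doses. Detection thresholds of 0.05 on both sides gave 84 and 38 members, and 0.01 with 0.2 gave 28 and 6. The rule applied to the 1 Gy pools gave 32 and 20 probes and to the 10 cGy pools 81 and 12. Leaving out 1 pool at a time, C57BL/6J-only members called ranged from 34 to 36 at 1 Gy, 35 to 37 at 10 cGy and 36 to 38 over both, and DBA/2J-only members from 10 to 11, 8 to 9 and 10 to 11. Calls between the doses ranged from 0 to 0 in C57BL/6J and 2 to 7 in DBA/2J, and dose-dependent strain differences from 2 to 9. The members themselves numbered 43 to 55, the latter without C57BL/6J control replicate 3, and 11 to 17, the latter without DBA/2J control replicate 1. Requiring the signal of the lacking strain to be low as well, added after seeing the data, left 40 and 11. For the strain difference of each member over both doses together, 579 values were compared, those under the other settings and the lowest and highest with 1 pool left out. Of these, 569 kept their side of the threshold, 6 lost it (Hdc and Rbm44) and 4 gained it. Losses at a single dose or between doses stand with those results, besides 1 Gm16867 probe at 1 Gy, lost without C57BL/6J replicate 4 or DBA/2J replicate 2 (adjusted p up to 0.0588 in limma). A filter on dim probes kept 17674 probes, with 38 and 11 members. No paired analysis was possible because the labels carry no replicate numbers shared between groups.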
